A study of Homo sapiens with 4 samples.

Results

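The HCT116 wildtype library was compared with the RKO wildtype library, gene by gene, to describe how these established human colorectal cancer cell lines differ at baseline. Genes entered when their annotation held a protein-coding transcript and their mean over both wildtype (WT) libraries was at least 1 FPKM, a fragment count scaled to transcript length and library size. Of 60612 gene identifiers in the deposited tables, 19673 had a protein-coding transcript and 10162 met both conditions.

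The study overexpressed AVEN, a gene for an inhibitor of caspase activation, and sequenced poly(A) RNA from 4 groups: HCT116 WT, HCT116 with AVEN overexpression (OE), RKO WT and RKO OE. Each group had 1 library, and both lines were labelled only as colorectal cancer cells. The vector, the promoter driving AVEN and the number of clones are not given in the sources used here. With 1 library per side, no test between the lines was made, and the values of each line came from a table of its own. The OE libraries served as a second library per line, but they also carried the AVEN treatment and so were not replicates of the WT libraries.

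HCT116 and RKO are both mismatch-repair-deficient lines. HCT116 is known for an activating mutation of CTNNB1, which encodes beta-catenin. RKO is known for an activating BRAF mutation and a CpG island methylator phenotype. Colorectal epithelium is held together by E-cadherin junctions, desmosomes and tight junctions over a keratin scaffold. Repressors such as ZEB1 and the SNAI proteins are known to switch that programme off by binding E-box motifs in the promoters of its genes.

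Of the 10162 genes, 944 were at least 2-fold higher in HCT116 WT (9.29%) and 1002 were at least 2-fold lower (9.86%), 1946 in all (19.1%). Differences were taken as log2 of (HCT116 + 1)/(RKO + 1) in FPKM, here called the log2 difference, which understates the difference of low genes. At least 32-fold differences on this scale numbered 29 higher and 15 lower, while 6249 genes (61.5%) lay within 1.5-fold either way. The median log2 difference was -0.13, and after centring on it 1099 genes were higher and 767 lower, so that the higher share of these calls was 58.9% in place of 48.5%. Dividing FPKM by the sum outside the mitochondrial genome brought the median to -0.02 and gave 1079 higher and 801 lower genes.

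The same difference was read in the OE pair, HCT116 OE over RKO OE. The call was repeated there for 758 of the 944 higher genes (80.3%) and 576 of the 1002 lower genes (57.5%), which are 7.46% and 5.67% of all genes compared. The sign alone was the same for 907 higher and 948 lower genes. Stricter still, 723 genes (7.11%) were at least 2-fold higher in each HCT116 library than in each RKO library, and 531 (5.23%) at least 2-fold lower. These are called separated genes below. Levels ranked more alike within a line than between lines, with a Spearman rho over the 10162 genes of 0.767 between the WT libraries, 0.973 between HCT116 WT and OE, and 0.962 between RKO WT and OE. These coefficients are across genes, which are not independent, and are given as a description.

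**Figure D1:**
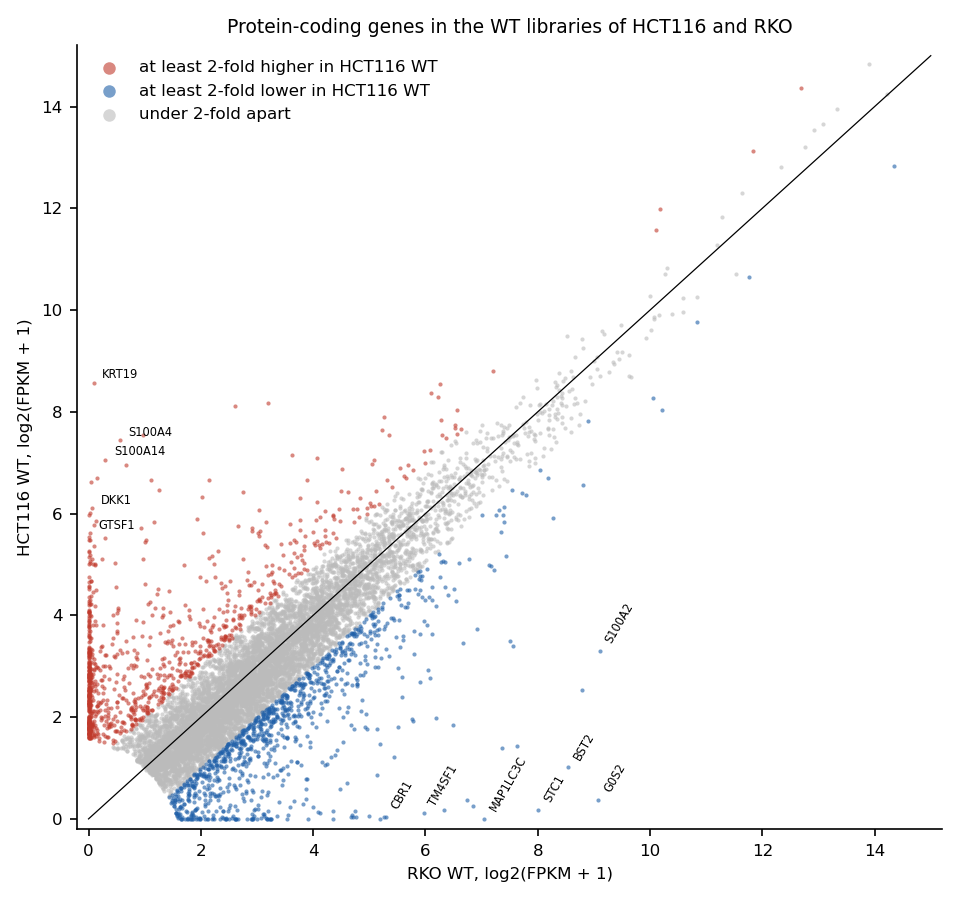
Levels of the 10162 protein-coding genes in HCT116 WT (vertical axis) and RKO WT (horizontal axis), both as log2(FPKM + 1); each point is a gene, and the line marks equal levels. The 944 red genes and 1002 blue genes lie at least 2-fold off the line, with KRT19 farthest above it and G0S2 farthest below among the labelled genes.

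Technical measures differed between the lines as well. Mitochondrial genes took 44.7% and 45.6% of summed FPKM in HCT116 WT and OE, against 32.8% and 30.3% in RKO WT and OE. A fragment on a transcript of 1 kilobase was worth an estimated 0.0482 to 0.0537 FPKM in the 4 libraries, so that a count of 0, which allows 3 fragments, allowed 0.145 to 0.161 FPKM there. Across genes, the log2 difference of the WT pair had a rho of 0.224 with transcript GC content, and that of the OE pair had -0.106. Their part in the differences between lines was not tested beyond the GC, length and scaling settings described at the end. Among the 10162 genes, 1595 share at least 50 bases of exon with another gene on the same strand, and how fragments were split between such genes is uncertain.

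**Figure D2:**
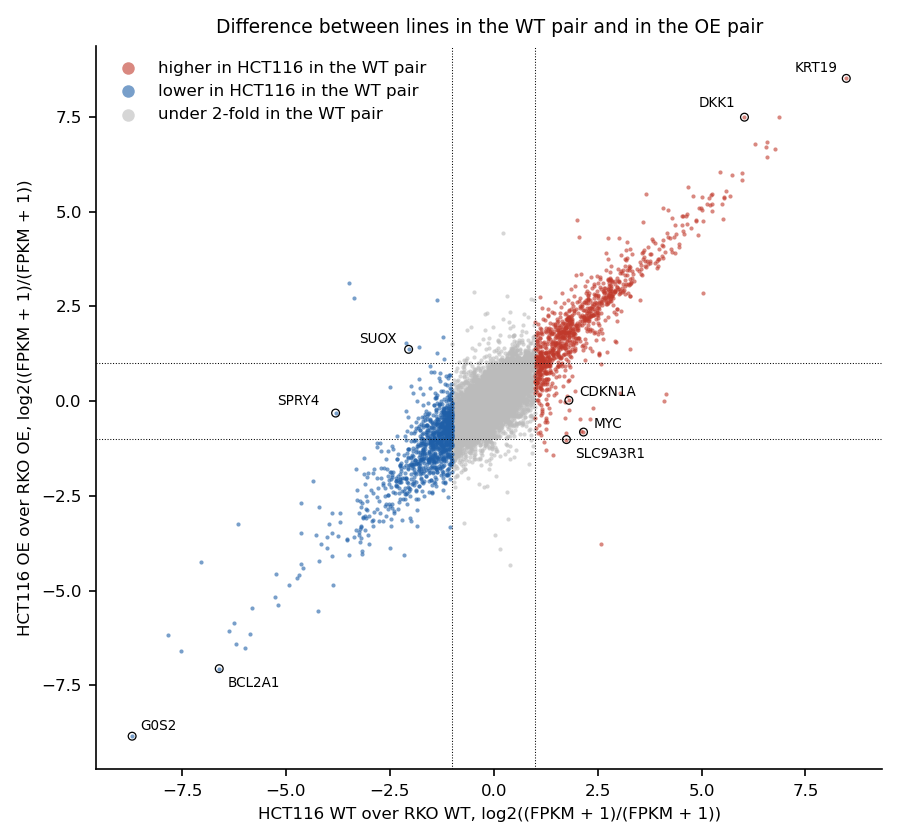
The log2 difference of each gene in the OE pair (vertical axis) against that in the WT pair (horizontal axis); dotted lines mark 2-fold, red and blue points were at least 2-fold higher and lower in HCT116 in the WT pair. KRT19, DKK1, G0S2 and BCL2A1 lie near the diagonal, whereas MYC, SPRY4, CDKN1A, SLC9A3R1 and SUOX lie off it.

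The difference at the top of the comparison was that of KRT19, a keratin of simple epithelium on chromosome 17 (chr17:41523617-41528308, GENCODE 29 on GRCh38). It stood at 380.4 and 381 FPKM in HCT116 WT and OE, against 0.0659 and 0.0426 FPKM in RKO WT and OE, a log2 difference of 8.48 in the WT pair and 8.52 in the OE pair. The WT values rest on an estimated 5276 fragments in HCT116 and 1 in RKO. The other 11 genes at that end are a mixed group. S100A4, a calcium-binding protein linked to cell motility, stood at 173 and 266 FPKM in HCT116 WT and OE, against 0.4796 and 0.467 FPKM in RKO WT and OE, a ratio in the WT pair of 359.9-fold (160.4 to 954), where brackets give the 95% counting interval on estimated fragments. AREG, which encodes the EGF receptor ligand amphiregulin, stood at 186 and 139 FPKM in HCT116 WT and OE, against 0.969 and 0.217 FPKM in RKO WT and OE, a ratio of 192-fold (122 to 308) in the WT pair. DKK1, a secreted WNT antagonist, had 67.7 and 183 FPKM in HCT116 WT and OE, against 0.0498 and 0.0229 FPKM in RKO WT and OE. The lines did not overlap for any of these genes. The remaining 8 were the calcium-binding protein gene S100A14, the cancer-testis antigen gene MAGEB2, the translation elongation factor gene EEF1A2, the lysosomal membrane protein gene LAPTM4B, MALL, the serine protease gene ST14, the plakoglobin gene JUP and the piRNA pathway gene GTSF1, with log2 differences of 5.58 to 6.76.

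At the other end stood G0S2, an inhibitor of adipose triglyceride lipase on chromosome 1 (chr1:209675420-209676388). It had 0.297 and 0.1602 FPKM in HCT116 WT and OE, against 539 and 532 FPKM in RKO WT and OE, a log2 difference of -8.70 in the WT pair and -8.84 in the OE pair. BST2, which encodes the interferon-induced virus tether tetherin, stood at 1.02 and 1.97 FPKM in HCT116 WT and OE, against 369.99 and 287 FPKM in RKO WT and OE, and its WT level in RKO was 364-fold (211 to 759) that of HCT116. BCL2A1, an anti-apoptotic BCL2 relative, had 0.186 and 0.0001 FPKM in HCT116 WT and OE, against 114 and 133 FPKM in RKO WT and OE. These genes were low in both HCT116 libraries and among the abundant mRNAs of both RKO libraries. The hormone gene STC1, the autophagy gene MAP1LC3C, the actin-bundling protein gene LCP1, the G protein signalling regulator gene RGS4, CLEC11A, TM4SF1, S100A2 and the carbonyl reductase gene CBR1 also stood at this end. MAP1LC3C and RGS4 were lower in RKO OE than in RKO WT, so their log2 difference was -7.04 and -6.16 in the WT pair and -4.23 and -3.24 in the OE pair.

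A near on-off pattern was more often seen with expression in HCT116. Among the 10162 genes compared, 723 (7.11%) were separated higher in HCT116 and 531 (5.23%) separated lower. The near on-off genes had at least 5 FPKM in both libraries of a line and under 0.1 FPKM in both of the other. They numbered 149 for HCT116 and 27 for RKO, out of the same 10162. Of these, 53 were listed at the floor of 0.0001 FPKM in both RKO libraries and 7 in both HCT116 libraries. Among genes of the described lists that were on the floor in both RKO libraries, FGF19, an enterohepatic hormone of the FGF family, had 24.3 and 29.7 FPKM in HCT116 WT and OE. CYP24A1, the enzyme that inactivates vitamin D, had 15.7 and 12.8 FPKM there, and ME1, cytosolic malic enzyme, had 14.8 and 12.4 FPKM. IL18, an interleukin gene, had 8.48 and 10.7 FPKM, RUNX3 had 7.92 and 8.13 FPKM and the chromatin remodeller gene HLTF had 3.78 and 5.78 FPKM. In the opposite direction, the transcription factor gene GATA4 was at the floor in both HCT116 libraries and had 5.15 and 5.76 FPKM in RKO WT and OE. LEF1, HOXD9 and the neuronal growth cone gene GAP43 followed the same pattern, with 5.096 and 3.94, 4.44 and 6.04 and 3.32 and 4.499 FPKM in RKO WT and OE.

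The label of the lines as colorectal cells was checked against epithelial and intestinal markers. The summed level of 11 colorectal epithelial markers was 986 and 941 FPKM in HCT116 WT and OE, against 50.0 and 85.7 FPKM in RKO WT and OE. The keratin genes KRT8, KRT18 and KRT19 made up most of this sum in all 4 libraries, and 6 of the 11 markers reached 1 FPKM in HCT116 WT, against 4 in RKO WT. CDX2, the master transcription factor of intestinal identity, was alike in both lines, with 5.44 and 4.83 FPKM in HCT116 WT and OE, against 4.38 and 4.83 FPKM in RKO WT and OE. CDX1, the stem cell receptor gene LGR5 and the brush border gene VIL1 were under 0.1 FPKM in all 4 libraries, so those intestinal markers were not detectable at this depth in either line. Mesenchymal markers summed to 2.99 and 3.40 FPKM in HCT116 WT and OE, against 12.8 and 5.90 FPKM in RKO WT and OE. VIM and ZEB1 made up most of the RKO sum, and the fibronectin gene FN1 went the other way (1.46 and 2.35 FPKM in HCT116, against 0.244 and 0.138 FPKM in RKO). Markers of other cells were low: fibroblast markers summed to 2.82 and 2.86 FPKM in HCT116 WT and OE, against 0.145 and 0.164 FPKM in RKO WT and OE, and endothelial markers stayed under 0.1 FPKM. Blood markers summed to 1.78 and 1.46 FPKM in HCT116 WT and OE, against 197 and 196 FPKM in RKO WT and OE. Nearly all of that sum was CD68, a lysosomal glycoprotein gene that shares exons with another gene, and the other 5 blood markers, PTPRC and CD3E among them, were at most 0.112 FPKM, the level of CD14 in RKO OE. The globin gene HBA1, which has a near-identical copy and lay outside that sum, was higher in HCT116 in both pairs (1.89 and 1.79 FPKM in HCT116, against 0.392 and 0.2802 FPKM in RKO).

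Intestinal transcription factors other than CDX2 differed. Of 13 measured, 6 were at least 2-fold higher in HCT116 WT and 2 lower (46.2% and 15.4%, against 9.29% and 9.86% of all genes). Their median log2 difference of 0.31 depended on the setting, reaching 1.38 when scaled outside the mitochondrial genome and 3.05 at a mean of at least 5 FPKM. SOX9, a factor of crypt progenitors, stood at 23.4 and 28.1 FPKM in HCT116 WT and OE, against 1.00002 and 0.841 FPKM in RKO WT and OE. PPARG, a nuclear receptor of colonocytes and fat cells, stood at 8.49 and 6.29 FPKM in HCT116 WT and OE, against 0.0107 and 0.0112 FPKM in RKO WT and OE. KLF5, which marks proliferating crypt cells, stood at 10.9 and 13.7 FPKM in HCT116 WT and OE, against 1.13 and 0.498 FPKM in RKO WT and OE, and KLF4, known from differentiating colonocytes, at 7.11 and 5.37 FPKM in HCT116 WT and OE, against 0.688 and 0.2301 FPKM in RKO WT and OE. Each of these 4 was separated between the lines, and ELF3, which shares exons with another gene, and FOXA3 were also higher. GATA4, described above, and FOXA1 (0.342 and 0.374 FPKM in HCT116 WT and OE, against 1.69 and 1.35 FPKM in RKO WT and OE) were the lower members. Of 33 genes of intestinal differentiation and the brush border only 3 reached the filter, USH1C, TSPAN1 and the carbonic anhydrase gene CA2, and 17 of the 30 others were at the floor in all 4 libraries.

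Epithelial junction genes gave the highest number of differences in 1 direction among the 38 lists examined. Of 44 measured junction, polarity and epithelial splicing genes, 26 were at least 2-fold higher in HCT116 WT (59.1%, against 9.29% of all genes) and 1 was lower. Of the 26, 24 were also higher in the OE pair, and the list's median log2 difference was 1.54 in the WT pair and 1.46 in the OE pair, against -0.13 and -0.01 for all genes. CDH1, which encodes E-cadherin, stood at 8.25 and 17.5 FPKM in HCT116 WT and OE, against 0.008003 and 0.00834 FPKM in RKO WT and OE. EPCAM, an epithelial adhesion molecule, stood at 79.2 and 85.1 FPKM in HCT116 WT and OE, against 3.08 and 2.02 FPKM in RKO WT and OE, a WT ratio of 25.7-fold (20.3 to 32.9). The desmosomal gene JUP stood at 56.9 and 63.1 FPKM in HCT116 WT and OE, against 0.0968 and 0.0206 FPKM in RKO WT and OE. For all 3 the highest RKO value lay far below the lowest HCT116 value.

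Each layer of the junction held genes that were split between the lines, although 17 of the 44 measured genes were under 2-fold apart in the WT pair. For adherens junctions, CDH3, which encodes P-cadherin, stood at 33.6 and 38.6 FPKM in HCT116 WT and OE, against 0.188 and 0.447 FPKM in RKO WT and OE. Of desmosome genes, the plakin gene DSP stood at 17.3 and 21.2 FPKM in HCT116, against 2.31 and 2.71 FPKM in RKO, and the plakophilin gene PKP3 at 24.5 and 23.1 FPKM in HCT116, against 4.74 and 8.42 FPKM in RKO. Among claudins, the strand-forming proteins of tight junctions, CLDN7 had 53.7 and 44.7 FPKM in HCT116, against 0.0669 and 0.0815 FPKM in RKO, although it shares exons with another gene, and CLDN3 had 7.77 and 10.5 FPKM in HCT116, against 1.05 and 0.1199 FPKM in RKO. Proteases of the epithelial surface moved the same way, with ST14, which encodes matriptase, at 63.1 and 57.2 FPKM in HCT116, against 0.0237 and 0.0124 FPKM in RKO, and the related prostasin gene PRSS8 at 15.1 and 15.7 FPKM in HCT116, against 0.0164 and 0.0331 FPKM in RKO. Their inhibitor gene SPINT2 was higher in HCT116 (58.4 and 46.4 FPKM in HCT116, against 2.84 and 3.01 FPKM in RKO), whereas the related SPINT1 was close in both lines (36.4 and 36.7 FPKM in HCT116, against 30.1 and 32.8 FPKM in RKO). RAB25, a GTPase of apical recycling in epithelial cells, had 43.8 and 39.1 FPKM in HCT116, against 0.0001 and 0.0864 FPKM in RKO.

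The regulators of the programme followed it in part. ESRP1, the epithelial splicing regulator, had 22.8 and 21.5 FPKM in HCT116 WT and OE, against 0.01002 and 0.0001 FPKM in RKO WT and OE. Its paralog ESRP2 was not lower in RKO, with 4.502 and 4.13 FPKM in HCT116 WT and OE, against 5.87 and 9.03 FPKM in RKO WT and OE. GRHL2, a transcription factor that maintains epithelial genes, had 4.43 and 5.24 FPKM in HCT116, against 0.0001 and 0.0126 FPKM in RKO, and OVOL1, a repressor of ZEB genes, had 6.64 and 6.5996 FPKM in HCT116, against 0.0128 and 0.0001 FPKM in RKO. Its paralog OVOL2, which shares exons with another gene, went the other way, with 0.625 and 0.326 FPKM in HCT116, against 1.41 and 2.70 FPKM in RKO. OVOL2 was called lower in HCT116 in the OE pair only. Some junction components were near equal: the catenin gene CTNNA1 stood at 40.8 and 46.9 FPKM in HCT116, against 33.6 and 24.6 FPKM in RKO, the tight junction scaffold gene TJP1 at 4.72 and 4.51 FPKM in HCT116, against 5.18 and 3.703 FPKM in RKO and occludin, OCLN, at 1.81 and 1.27 FPKM in HCT116, against 1.52 and 0.852 FPKM in RKO. The desmosome gene PKP2 was close as well, at 2.38 and 2.78 FPKM in HCT116, against 2.99 and 2.42 FPKM in RKO. CTNNB1 stood at 17.4 and 19.9 FPKM in HCT116, against 25.2 and 21.01 FPKM in RKO. The lower member was CLDN12, which shares exons with another gene and whose call was lost in the OE pair and under 3 other settings.

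Keratins of simple epithelium were higher in HCT116 for 5 of 5 measured genes (100%, against 9.29% of all genes), all of them separated. Among them, KRT7, KRT19 and KRT23 were under 0.1 FPKM in RKO WT. They passed the filter only through HCT116, which made their calls certain. The list's median log2 difference was 2.93 in the WT pair and 3.11 in the OE pair. Beside KRT19, KRT8 stood at 276 and 225 FPKM in HCT116 WT and OE, against 5.09 and 7.01 FPKM in RKO WT and OE, a WT ratio of 54.2-fold (45.7 to 64.9). KRT18, its partner in the filament, stood at 237 and 227 FPKM in HCT116 WT and OE, against 37.4 and 71.8 FPKM in RKO WT and OE, a WT ratio of 6.33-fold (5.91 to 6.78). The pair lies side by side on chromosome 12 (chr12:52897187-52949954 and chr12:52948871-52952901), and KRT18 remained well expressed in RKO where KRT8 and KRT19 were low. These keratins have processed pseudogenes, so some of their fragments may be shared with copies. KRT20, a marker of mature colonocytes, was under 1 FPKM in all 4 libraries.

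**Figure D3:**
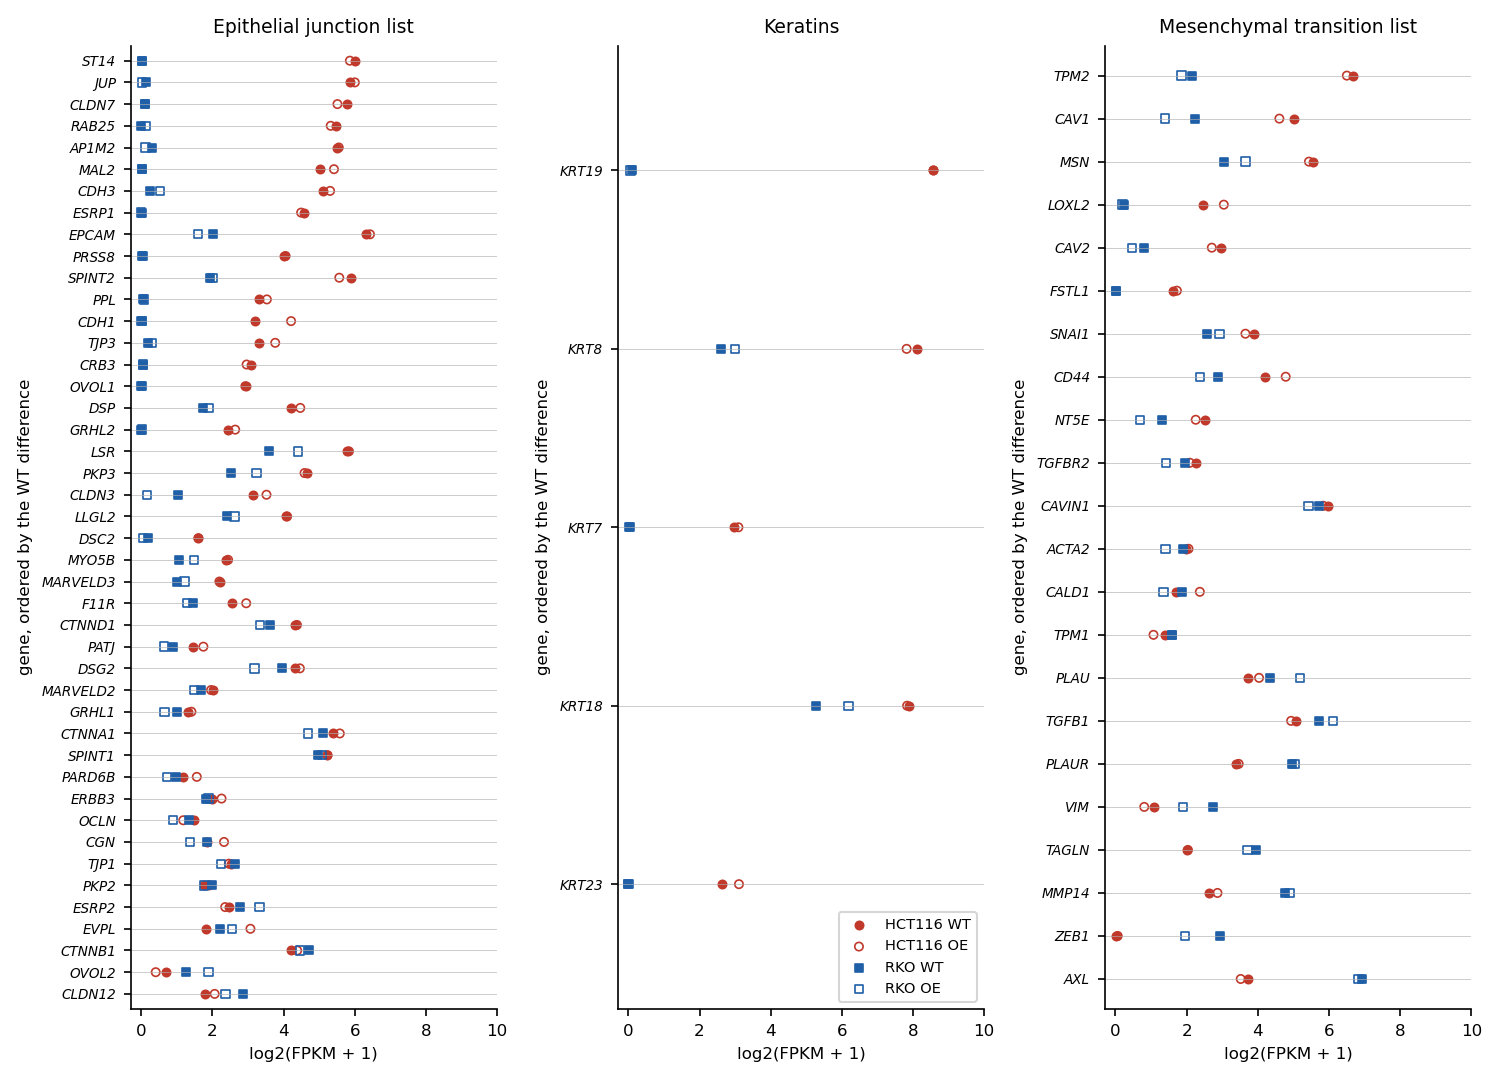
Levels as log2(FPKM + 1) of the members of the epithelial junction, keratin and mesenchymal transition lists in HCT116 WT (filled circles), HCT116 OE (open circles), RKO WT (filled squares) and RKO OE (open squares), 1 row per gene, ordered by the WT difference, with 1 gene not reported here left out. For ST14, JUP, RAB25, CDH1 and KRT19 the circles lie far right of the squares, whereas AXL and ZEB1 show the reverse and the values of TJP1 overlap.

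The E-box CACCTG and its reverse complement CAGGTG, the letters that ZEB1 and SNAI repressors are known to bind, were searched on both strands in promoter windows from 250 bases before to 50 bases after each annotated start (RefSeq, GRCh38.p14). Of the 24 junction genes separated higher in HCT116, 10 had an entry, and 9 of these held the motif in at least 1 window, all except LSR. By window, 9 of 14 (64.3%) held it, against 18.4% of the 11923 windows of all genes compared and 20.6% of 35116 windows in the table. Among separated genes in general, 32.02% of those higher and 22.7% of those lower in HCT116 held the motif, against 23.5% of the 8239 genes with an entry. Among the near on-off genes described above, 40.6% of 101 restricted to HCT116 held the motif, and 13.6% of 22 restricted to RKO. The junction genes were chosen by their difference between the lines and were not set beside the other junction genes. Their share therefore cannot bear on that difference, and a link with ZEB1 or SNAI proteins was not tested. A match is a stretch of letters and not a measured binding site. The windows below carry the motif in junction genes that were high in HCT116 and near the floor in RKO; capitals mark the motif, and each sequence reads 5′ to 3′ on the strand of its gene. RAB25 has a window on the plus strand at chr1:156060910-156061209, with 2 matches. CLDN7, on the minus strand, has a window with 5 matches at chr17:7262429-7262728, and JUP, also on the minus strand, has a window with 2 matches at chr17:41785927-41786226. The window at a second annotated start of CLDN7, and likewise of JUP, had no match.
RAB25: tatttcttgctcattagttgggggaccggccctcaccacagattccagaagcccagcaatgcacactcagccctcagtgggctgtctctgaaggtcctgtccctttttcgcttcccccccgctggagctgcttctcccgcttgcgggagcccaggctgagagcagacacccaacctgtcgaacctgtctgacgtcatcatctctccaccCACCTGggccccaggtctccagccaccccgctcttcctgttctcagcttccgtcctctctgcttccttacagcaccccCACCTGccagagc
CLDN7: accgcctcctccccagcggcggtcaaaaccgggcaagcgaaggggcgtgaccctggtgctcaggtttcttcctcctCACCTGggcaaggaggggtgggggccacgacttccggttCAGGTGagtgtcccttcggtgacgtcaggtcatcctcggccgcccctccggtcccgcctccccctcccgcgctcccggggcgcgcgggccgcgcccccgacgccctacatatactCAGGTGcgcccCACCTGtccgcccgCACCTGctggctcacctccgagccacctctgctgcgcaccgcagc
JUP: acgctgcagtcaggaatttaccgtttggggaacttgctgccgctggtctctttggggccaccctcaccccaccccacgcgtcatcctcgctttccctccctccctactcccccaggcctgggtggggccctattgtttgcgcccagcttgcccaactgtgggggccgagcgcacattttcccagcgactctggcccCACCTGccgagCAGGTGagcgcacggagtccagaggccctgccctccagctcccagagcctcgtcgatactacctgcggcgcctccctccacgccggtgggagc

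Mesenchymal genes did not mirror the epithelial ones. Of 23 measured, 9 were at least 2-fold higher and 7 lower in HCT116 WT (39.1% and 30.4%, against 9.29% and 9.86% of all genes). Their median log2 difference of 0.10 ranged from -0.62 to 0.23 over the other settings. ZEB1, the repressor of epithelial genes, was lower in HCT116, with 0.0186 and 0.0444 FPKM in HCT116 WT and OE, against 6.59 and 2.88 FPKM in RKO WT and OE. VIM, which encodes vimentin, stood at 1.101 and 0.751 FPKM in HCT116 WT and OE, against 5.72 and 2.74 FPKM in RKO WT and OE, so that its level was modest even in RKO. AXL, a receptor tyrosine kinase, stood at 12.2 and 10.5 FPKM in HCT116 WT and OE, against 119.97 and 113 FPKM in RKO WT and OE. The metalloprotease gene MMP14 (5.15 and 6.29 FPKM in HCT116, against 26.3 and 28.7 FPKM in RKO), the actin-associated gene TAGLN (3.02 and 3.10003 FPKM in HCT116, against 14.5 and 12.1 FPKM in RKO) and the urokinase receptor gene PLAUR (9.53 and 10.02 FPKM in HCT116, against 30.1 and 31.7 FPKM in RKO) were lower as well. In the other direction, tropomyosin TPM2 had 101 and 89.7 FPKM in HCT116 WT and OE, against 3.41 and 2.63 FPKM in RKO WT and OE. The caveolin gene CAV1 (31.4 and 23.4 FPKM in HCT116, against 3.69 and 1.62 FPKM in RKO) and the membrane linker gene MSN (46.1 and 42.3 FPKM in HCT116, against 7.22 and 11.6 FPKM in RKO) were also higher in HCT116. SNAI1, a further repressor of CDH1, was higher in HCT116 in the WT pair (13.97 and 11.6 FPKM in HCT116, against 4.98 and 6.56 FPKM in RKO), a call that was not repeated in the OE pair.

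Integrin and matrix genes differed in both directions. ITGB4, the hemidesmosome integrin chain, stood at 43.9 and 67.2 FPKM in HCT116 WT and OE, against 0.0217 and 0.0299 FPKM in RKO WT and OE. ITGB1, the partner of most other alpha chains, stood at 48.9 and 40.03 FPKM in HCT116 WT and OE, against 161 and 101 FPKM in RKO WT and OE. ITGA6 and ITGA3, alpha chains that bind laminin, were higher in HCT116, with log2 differences of 1.07 and 1.52 in the WT pair, while ITGA5, the fibronectin receptor chain, stood at 12.7 and 11.2 FPKM in HCT116, against 26.3 and 22.97 FPKM in RKO and missed the 2-fold mark. The laminin chain gene LAMB3 was lower in HCT116 (10.3 and 10.5 FPKM in HCT116, against 180.3 and 137 FPKM in RKO). Of 16 measured matrix genes, 6 were higher and 4 lower (37.5% and 25%, against 9.29% and 9.86% of all genes). The collagen VI genes COL6A2 (24.5 and 29.2 FPKM in HCT116, against 0.0255 and 0.0276 FPKM in RKO) and COL6A1 (23.2 and 27.4 FPKM in HCT116, against 6.29 and 6.27 FPKM in RKO) and the endostatin precursor gene COL18A1 (13.4 and 17.99 FPKM in HCT116, against 0.424 and 0.277 FPKM in RKO) were higher in HCT116, whereas LAMA1 (0.0001 and 0.00608 FPKM in HCT116, against 2.61 and 8.94 FPKM in RKO) was lower.

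S100 genes, most of which sit together on chromosome 1, included neighbours at opposite levels. S100A4 (chr1:153543613-153550136) and S100A14 (chr1:153614255-153616986) were higher in HCT116, while S100A2 (chr1:153561108-153567890), which lies between them, was lower. S100A2 stood at 8.82 and 4.47 FPKM in HCT116 WT and OE, against 548 and 239 FPKM in RKO WT and OE, with RKO WT at 62.2-fold (51.4 to 76.04) the level of HCT116 WT. S100A16 was lower too, with 59.4 and 56.9 FPKM in HCT116 WT and OE, against 309 and 268 FPKM in RKO WT and OE. S100A6 was near equal (413 and 353 FPKM in HCT116, against 489 and 569.6 FPKM in RKO). Over the 10 measured S100 genes, 4 were higher and 2 lower (40% and 20%, against 9.29% and 9.86% of all genes). Their median log2 difference of 0.04 ranged from -0.28 to 0.32 over the other settings.

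Of 18 measured WNT targets, 11 were higher and 2 lower in HCT116 WT (61.1% and 11.1%, against 9.29% and 9.86% of all genes). Their median log2 difference was 1.28 in the WT pair and 1.20 in the OE pair. In this pathway beta-catenin escapes degradation and acts with TCF and LEF factors on its target genes. The negative feedback genes, which are classical readouts, were among the higher ones. AXIN2 stood at 3.44 and 4.12 FPKM in HCT116 WT and OE, against 0.694 and 0.491 FPKM in RKO WT and OE, and RNF43 at 12.9 and 15.8 FPKM in HCT116 WT and OE, against 0.0552 and 0.0001 FPKM in RKO WT and OE, although both share exons with another gene. NOTUM, a secreted WNT deacylase, had 6.03 and 7.42 FPKM in HCT116, against 1.14 and 1.07 FPKM in RKO, and ZNRF3 had 3.28 and 4.79 FPKM in HCT116, against 1.93 and 2.49 FPKM in RKO, under 2-fold. DKK1, given above, was the highest member. NKD1, a further feedback gene, was close in both lines, at 1.17 FPKM in HCT116 WT, against 1.01 FPKM in RKO WT.

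Other targets separated the lines less uniformly. CCND1, which encodes cyclin D1, stood at 85.9 and 98.9 FPKM in HCT116 WT and OE, against 33.6 and 30.4 FPKM in RKO WT and OE, and SOX4 at 20.7 and 45.3 FPKM in HCT116 WT and OE, against 4.51 and 3.59 FPKM in RKO WT and OE. MYC had 39.6 and 5.57 FPKM in HCT116 WT and OE, against 8.08 and 10.6 FPKM in RKO WT and OE, so its higher level in HCT116 WT was not seen in the OE pair. RGMB and LEF1 were the lower members, RGMB with 2.49 and 3.39 FPKM in HCT116, against 29.5 and 11.5 FPKM in RKO. Transcription factors of the pathway differed by gene: TCF7L2 had 16.8 and 18.5 FPKM in HCT116, against 1.28 and 2.65 FPKM in RKO and TCF7L1 had 6.92 and 7.05 FPKM in HCT116, against 0.00989 and 0.0001 FPKM in RKO, both higher in HCT116, while LEF1 was at the floor there. TCF7, the remaining member, had 3.92 and 2.11 FPKM in HCT116, against 1.45 and 3.26 FPKM in RKO, and its higher level in the WT pair was not seen in the OE pair. Of 25 measured receptors and components, 5 were higher (20%, against 9.29% of all genes) and none was lower. WNT16 (15.8 and 16.7 FPKM in HCT116, against 0.0001 and 0.0412 FPKM in RKO), WNT10B (4.28 and 3.201 FPKM in HCT116, against 0.0001 and 0.0001 FPKM in RKO) and the WNT5A receptor gene ROR2 (6.07 and 5.77 FPKM in HCT116, against 0.0001 and 0.0173 FPKM in RKO) were higher beside the TCF genes, and the measured frizzled, LRP and DVL genes differed by less than 2-fold in the WT pair. In the OE pair FZD7, a frizzled receptor gene, was past 2-fold (6.07 and 6.73 FPKM in HCT116, against 2.89 and 2.49 FPKM in RKO).

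The mRNAs of the RAS and ERK cascade differed little. Of 16 measured genes, 2 were lower in HCT116 WT (12.5%, against 9.86% of all genes). They were RASA1 and the adaptor gene GRB2, and only GRB2 was lower in the OE pair (12.3 and 12.7 FPKM in HCT116, against 34.9 and 36.7 FPKM in RKO). BRAF, at the edge of the filter, stood at 0.612 and 0.736 FPKM in HCT116 WT and OE, against 1.43 and 0.65001 FPKM in RKO WT and OE, and did not reach a 2-fold difference on the log2(FPKM + 1) scale.

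Genes that ERK signalling is known to induce went both ways, with 6 of 24 higher and 5 lower in HCT116 WT (25% and 20.8%, against 9.29% and 9.86% of all genes), of which 4 and 2 repeated in the OE pair. DUSP4, a nuclear ERK phosphatase, stood at 15.03 and 19.4 FPKM in HCT116 WT and OE, against 0.345 and 0.369 FPKM in RKO WT and OE. ERRFI1, an inhibitor of the EGF receptor, stood at 66.1 and 78.6 FPKM in HCT116 WT and OE, against 7.25 and 3.01 FPKM in RKO WT and OE. FOSL1, an AP-1 subunit, was lower, with 31.9 and 25.9 FPKM in HCT116 WT and OE, against 96.2 and 141 FPKM in RKO WT and OE. The feedback genes DUSP6 and SPRY4 depended on the library: DUSP6 stood at 30.8 and 64.2 FPKM in HCT116 WT and OE, against 48.9 and 16.8 FPKM in RKO WT and OE, and SPRY4 at 2.89 and 28.5 FPKM in HCT116 WT and OE, against 53.3 and 35.8 FPKM in RKO WT and OE. For SPRY4 the low value was that of HCT116 WT alone, and for DUSP6 the order of the lines was reversed in the OE pair. ETV4 and ETV5, further ERK-induced factors, were near equal in the WT pair, with ETV4 at 20.2 FPKM in HCT116 WT, against 19.99 FPKM in RKO WT and ETV5 at 16.01 FPKM in HCT116 WT, against 16.4 FPKM in RKO WT.

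Receptor tyrosine kinases and their ligands were higher in HCT116 for 13 of 32 measured genes and lower for 3. These are 40.6% and 9.38%, against 9.29% and 9.86% of all genes. EGF receptor ligands were prominent. EREG, which encodes epiregulin and lies next to AREG on chromosome 4 (chr4:74365143-74388751 and chr4:74445134-74455009), stood at 35.6 and 40.6 FPKM in HCT116 WT and OE, against 0.0169 and 0.00891 FPKM in RKO WT and OE. TGFA stood at 8.71 and 10.2 FPKM in HCT116, against 2.22 and 2.52 FPKM in RKO, whereas HBEGF was near equal (3.49 and 3.06 FPKM in HCT116, against 4.54 and 4.12 FPKM in RKO). The receptors themselves were close: EGFR stood at 3.76 and 5.77 FPKM in HCT116 WT and OE, against 2.31 and 1.28 FPKM in RKO WT and OE, ERBB2 at 8.41 and 8.84 FPKM in HCT116, against 10.1 and 9.24 FPKM in RKO and ERBB3 at 2.99 and 3.78 FPKM in HCT116, against 2.52 and 2.71 FPKM in RKO. The call for EGFR was made only in the OE pair. FGFR4, the receptor for FGF19, stood at 18.8 and 16.6 FPKM in HCT116, against 4.62 and 3.96 FPKM in RKO, and the insulin-like growth factor gene IGF2, which shares exons with another gene, at 6.201 and 6.43 FPKM in HCT116, against 0.0273 and 0.0001 FPKM in RKO. HGF, the ligand of MET, was lower in HCT116, with 0.0276 and 0.00988 FPKM in HCT116 WT and OE, against 24.5 and 10.2 FPKM in RKO WT and OE, and MET itself stood at 16.4 and 18.2 FPKM in HCT116, against 8.75 and 3.14 FPKM in RKO.

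**Figure D4:**
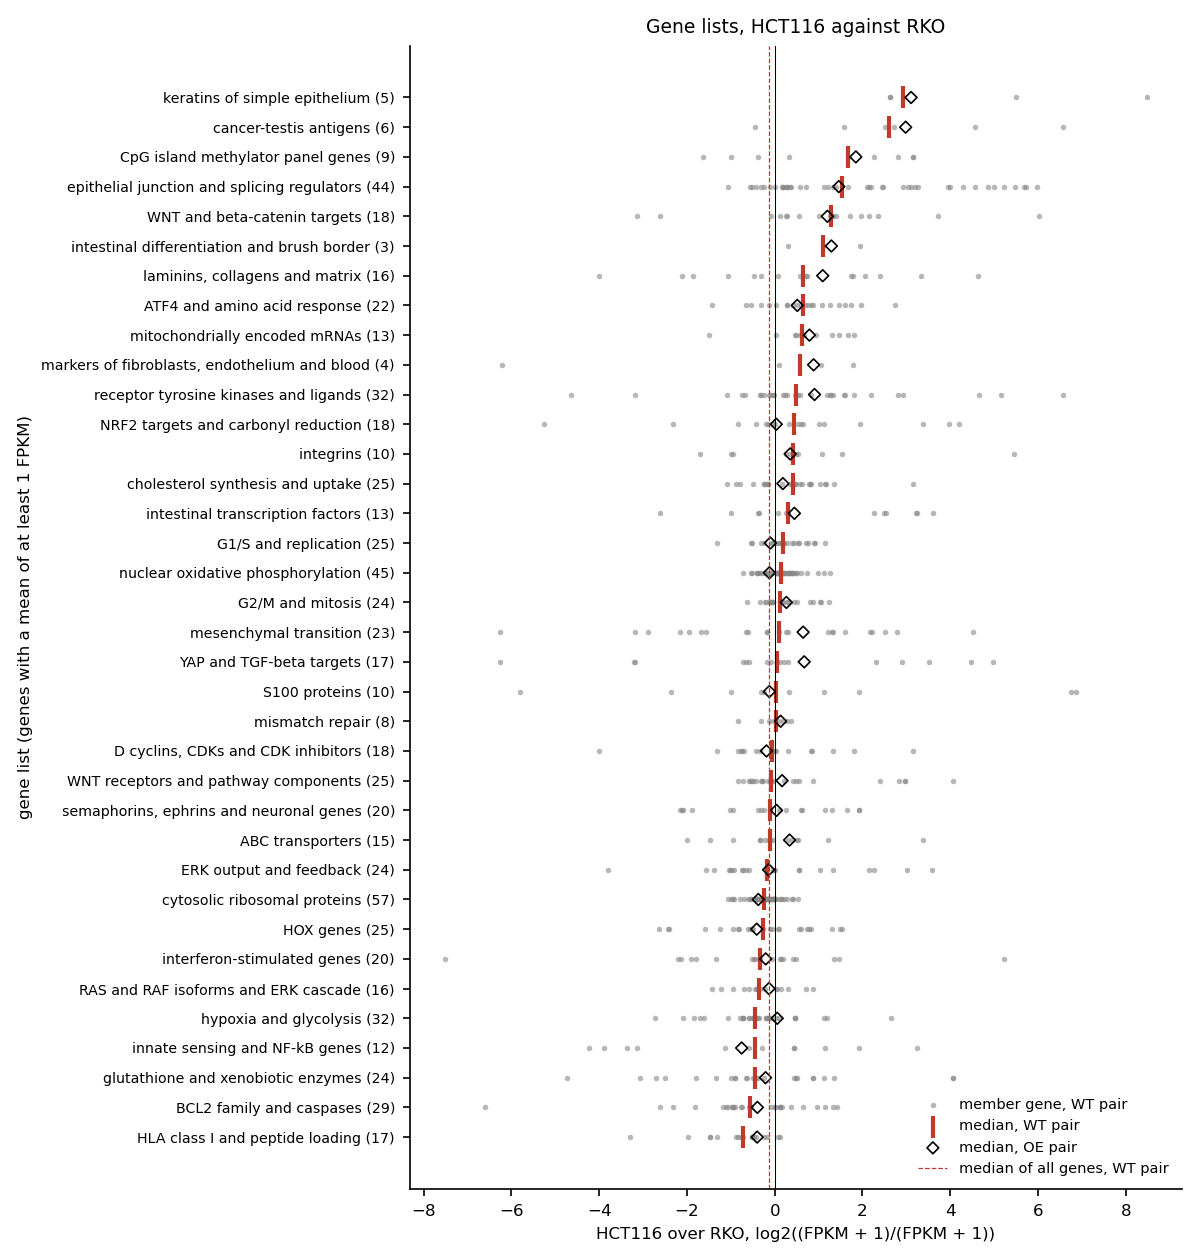
Log2 differences between HCT116 and RKO for the gene lists reported here with at least 3 measured members; grey dots are member genes in the WT pair, red bars their medians, open diamonds the medians in the OE pair, and the dashed line the median of all genes (-0.13). Keratin, cancer-testis, methylator panel, junction and WNT target lists lie at the top, and HLA class I, BCL2 family and glutathione lists at the bottom, with wide spread inside most lists.

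Genes known to be silenced in CpG island methylator tumours were examined because RKO is known for that phenotype. The methylator status of HCT116 was not examined, so HCT116 is not taken as a line without it. Of 24 panel genes, 9 reached the filter, and 7 of the 15 others were at the floor in all 4 libraries, those of HCT116 included. Of the 9 measured, 5 were higher and 2 lower in HCT116 WT (55.6% and 22.2%, against 9.29% and 9.86% of all genes). Each of the 5 had at most 0.164 FPKM in RKO WT and so passed the filter only through its HCT116 level. The median log2 difference of the 9 genes was 1.66, between 0.99 without genes that share exons and 4.50 with a pseudocount of 0.1. CDKN2A, which encodes the cell cycle inhibitor p16 (chr9:21967753-21995301), stood at 9.39 and 6.48 FPKM in HCT116 WT and OE, against 0.164 and 0.0447 FPKM in RKO WT and OE. RUNX3, HLTF and IGF2 are described above, and RASSF2 had 2.17 and 2.79 FPKM in HCT116, against 0.0001 and 0.0518 FPKM in RKO. The DNA repair gene MGMT was lower in HCT116 by a narrow margin (2.61 and 2.82 FPKM in HCT116, against 6.22 and 6.56 FPKM in RKO), and HIC1 was lower too (0.0935 and 0.355 FPKM in HCT116, against 2.37 and 2.66 FPKM in RKO). Of 8 measured mismatch repair genes, none differed by 2-fold in the WT pair, and MSH6 stood at 5.78 and 2.39 FPKM in HCT116, against 4.201 and 6.78 FPKM in RKO. Methylation itself was not measured.

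Cancer-testis antigens, germline genes often active in tumours, reached the filter for 6 of 45 genes. Of the 6, 5 were higher in HCT116 WT (83.3%, against 9.29% of all genes), and 4 of these repeated in the OE pair. The 5 had at most 0.0304 FPKM in RKO WT. They passed the filter only through their HCT116 level, which made the call certain. MAGEB1 did not repeat, with 2.01 FPKM in HCT116 WT and 0.0001 FPKM in HCT116 OE. MAGEB2 stood at 97.5 and 88.8 FPKM in HCT116 WT and OE, against 0.0304 and 0.0316 FPKM in RKO WT and OE. MAGEA3 had 22.7 and 20.1 FPKM in HCT116 WT and OE and was at the floor in both RKO libraries. MAGEA3, MAGEA6, MAGEA2 and MAGEA2B are near-identical copies, and MAGEB1 shares exons with another gene, so the division of fragments among them is uncertain. PRAME was expressed alike in both lines (12.5 and 13.1 FPKM in HCT116, against 17.4 and 12.6 FPKM in RKO).

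Antigen presentation genes differed by class. Of 17 measured genes of HLA class I and peptide loading, none was higher in the WT pair. Lower genes numbered 5 (29.4%, against 9.86% of all genes), 3 of them also lower in the OE pair. The median log2 difference was -0.73 in the WT pair and -0.40 in the OE pair. PSMB8, an immunoproteasome subunit, stood at 0.273 and 0.159 FPKM in HCT116 WT and OE, against 11.6 and 11.3 FPKM in RKO WT and OE. HLA-B stood at 49.995 and 59.5 FPKM in HCT116, against 56.2 and 30.2 FPKM in RKO, and the shared light chain gene B2M at 31.4 and 36.7 FPKM in HCT116, against 57.2 and 42.5 FPKM in RKO. HLA genes are polymorphic and alike in sequence, which makes the assignment of fragments to each uncertain. Both measured class II genes were higher in HCT116, HLA-DRA among them at 3.83 and 6.25 FPKM in HCT116, against 0.157 and 0.158 FPKM in RKO.

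Of 20 measured interferon-stimulated genes, 3 were higher and 6 lower in HCT116 WT (15% and 30%, against 9.29% and 9.86% of all genes). BST2 was the extreme member. MX1, an antiviral GTPase, stood at 0.0125 and 0.142 FPKM in HCT116 WT and OE, against 3.67 and 3.62 FPKM in RKO WT and OE. LGALS3BP, a secreted glycoprotein gene, went the other way, with 87.3 and 103 FPKM in HCT116 WT and OE, against 1.38 and 1.88 FPKM in RKO WT and OE. ISG15, a ubiquitin-like modifier gene, was near equal (65.9 and 69.1 FPKM in HCT116, against 48.9 and 59.5 FPKM in RKO).

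Of 12 measured genes of innate sensing and NF-kB signalling, 3 were higher and 5 lower in HCT116 WT, of which 2 and 5 repeated in the OE pair. The called shares were 25% and 41.7%, against 9.29% and 9.86% of all genes. The cytosolic DNA sensing pair was split between the lines. CGAS, the DNA sensor, stood at 0.0129 and 0.0115 FPKM in HCT116 WT and OE, against 7.92 and 7.401 FPKM in RKO WT and OE. STING1, the adaptor that acts downstream of it, stood at 2.84 and 4.19 FPKM in HCT116 WT and OE, against 0.0102 and 0.0315 FPKM in RKO WT and OE. Each line thus had 1 of the pair at or near the detection limit. CD274, which encodes PD-L1, stood at 0.4997 and 0.507 FPKM in HCT116 WT and OE, against 21.4 and 24.7 FPKM in RKO WT and OE, and the adhesion molecule gene ICAM1 at 2.39 and 1.82 FPKM in HCT116 WT and OE, against 34.04 and 32.7 FPKM in RKO WT and OE. IL32, which shares exons with another gene, had 1.33 and 0.01502 FPKM in HCT116, against 42.7 and 45.9 FPKM in RKO. IL18, at the floor in RKO, ran against these.

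Of 17 measured YAP and TGF-beta targets, 5 were higher and 3 lower in HCT116 WT, and each call repeated in the OE pair. The shares were 29.4% and 17.6%, against 9.29% and 9.86% of all genes. The list's median log2 difference was near 0 in the WT pair (0.06) and 0.67 in the OE pair. ID1, ID2 and ID3, which encode inhibitors of basic helix-loop-helix factors and are classical BMP targets, were higher in HCT116. ID1 stood at 289.5 and 286 FPKM in HCT116 WT and OE, against 8.17 and 7.44 FPKM in RKO WT and OE. ID2 stood at 43.97 and 25.04 FPKM in HCT116, against 1.03 and 0.556 FPKM in RKO, and ID3 at 141 and 113 FPKM in HCT116, against 11.4 and 16.9 FPKM in RKO. All 3 were separated, as was SMAD3, a signal transducer for TGF-beta, at 8.36 and 9.501 FPKM in HCT116, against 0.243 and 2.52 FPKM in RKO. The ligand gene BMP4 was higher in HCT116 as well (12.9 and 20.6 FPKM in HCT116, against 1.73 and 2.95 FPKM in RKO). CCN1, a YAP target, was lower in HCT116, with 4.25 and 5.39 FPKM in HCT116 WT and OE, against 47.2 and 77.5 FPKM in RKO WT and OE, whereas CCN2, its relative, had 1.07 and 0.994 FPKM in HCT116, against 2.41 and 0.173 FPKM in RKO. TGFBR2 was near equal (3.82 and 3.26 FPKM in HCT116, against 2.905 and 1.67 FPKM in RKO).

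Cell cycle mRNAs were among the closest groups. Of 25 G1/S genes 1 was higher (4%) and 1 lower (4%), against 9.29% and 9.86% of all genes. Of 24 G2/M genes 3 were higher (12.5%) and none lower. A single gene of these lists, KIF20A, repeated its call in the OE pair. The D cyclins were exchanged: CCND1 was higher in HCT116, as given above, and CCND2, which shares exons with another gene, was lower, with 0.0899 and 0.146 FPKM in HCT116 WT and OE, against 16.5 and 15.7 FPKM in RKO WT and OE. CDKN1A, which encodes p21, had 85.3 and 81.7 FPKM in HCT116 WT and OE, against 23.6 and 80.5 FPKM in RKO WT and OE, so that its WT difference was absent in the OE pair.

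The stress cytokine gene GDF15 stood at 58.1 and 104 FPKM in HCT116, against 12.6 and 25.3 FPKM in RKO and the kinase gene PLK2 at 7.07 and 5.59 FPKM in HCT116, against 0.218 and 0.123 FPKM in RKO. BAX, a pro-apoptotic effector, was lower, with 21.6 and 12.2 FPKM in HCT116 WT and OE, against 50.3 and 58.4 FPKM in RKO WT and OE.

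BCL2 family and caspase genes, of interest beside AVEN, were higher for 3 and lower for 7 of 29 (10.3% and 24.1%, against 9.29% and 9.86% of all genes), of which 1 and 5 repeated in the OE pair, with a median log2 difference of -0.57 in the WT pair and -0.39 in the OE pair. BAK1, the other pore-forming effector, stood at 18.6 and 14.8 FPKM in HCT116 WT and OE, against 68.3 and 93.2 FPKM in RKO WT and OE. MCL1, an anti-apoptotic member, stood at 28.9 and 35.3 FPKM in HCT116 WT and OE, against 149 and 103 FPKM in RKO WT and OE, so that effectors and an inhibitor were lower together. CASP4, an inflammatory caspase, stood at 1.16 and 2.34 FPKM in HCT116, against 12.1 and 8.67 FPKM in RKO. AVEN itself was under 2-fold apart in both pairs, with 1.53 and 2.96 FPKM in HCT116 WT and OE, against 1.34 and 4.43 FPKM in RKO WT and OE.

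HOX genes, which record position along the body axis, were 3 higher and 5 lower of 25 measured, all 8 repeated in the OE pair. Their shares were 12% and 20%, against 9.29% and 9.86% of all genes. HOXC8 was lower in HCT116, with 0.284 and 0.241 FPKM in HCT116 WT and OE, against 5.82 and 8.25 FPKM in RKO WT and OE. HOXC13 stood at 2.17 and 2.18 FPKM in HCT116, against 0.124 and 0.107 FPKM in RKO, and HOXB5 at 3.396 and 2.97 FPKM in HCT116, against 0.766 and 0.898 FPKM in RKO, both higher in HCT116. HOXB2 was lower (0.355 and 0.1502 FPKM in HCT116, against 7.44 and 2.88 FPKM in RKO). Within the HOXC cluster, members thus differed in opposite directions, while HOXA9 (18.7 and 17.97 FPKM in HCT116, against 10.8 and 11.4 FPKM in RKO) and HOXB9 (12.3 and 9.91 FPKM in HCT116, against 13.2 and 14.5 FPKM in RKO) were under 2-fold apart.

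Redox and detoxification enzymes differed by gene rather than as a class. AKR1B1, aldose reductase, stood at 17.6 and 19.2 FPKM in HCT116 WT and OE, against 0.0127 and 0.0001 FPKM in RKO WT and OE. CBR1 and CBR3, adjacent carbonyl reductase genes on chromosome 21 (chr21:36069941-36073166 and chr21:36134912-36146566), were both lower in HCT116, CBR1 with 0.0219 and 0.0197 FPKM in HCT116, against 38.3 and 35.9 FPKM in RKO and CBR3 with 1.73 and 1.59 FPKM in HCT116, against 12.6 and 11.3 FPKM in RKO. Of 18 measured genes of NRF2 targets and carbonyl reduction, 6 were higher and 2 lower in HCT116 WT. These are 33.3% and 11.1%, against 9.29% and 9.86% of all genes, so the lower share was near that of all genes. Of these calls, 4 and 2 repeated in the OE pair. NQO1, a readout of NRF2, was higher (125 and 107 FPKM in HCT116, against 31.9 and 36.1 FPKM in RKO). HMOX1, of the same list, went the other way (10.8 and 8.56 FPKM in HCT116, against 20.2 and 28.2 FPKM in RKO) and was called lower in the OE pair only. Glutathione and xenobiotic enzymes were higher for 4 and lower for 7 of 24, of which 2 and 3 repeated in the OE pair. The WT shares were 16.7% and 29.2%, against 9.29% and 9.86% of all genes. GSTM1, which shares exons with another gene and has close paralogs, had 0.0214 and 0.04796 FPKM in HCT116, against 26.1 and 25.6 FPKM in RKO, and GSTM3 had 0.0111 and 0.0001 FPKM in HCT116, against 7.44 and 7.503 FPKM in RKO. The retinoic acid enzyme gene ALDH1A3, which also shares exons, was higher in HCT116 (22.7 and 35.8 FPKM in HCT116, against 0.407 and 0.0767 FPKM in RKO). ABCC2, a drug efflux pump, had 9.45 and 8.31 FPKM in HCT116, against 0.00538 and 0.0422 FPKM in RKO, while ABCC1 was close (16.3 and 17.8 FPKM in HCT116, against 11.2 and 11.2 FPKM in RKO).

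Of 32 hypoxia and glycolysis genes, 3 were higher and 6 lower in HCT116 WT (9.38% and 18.75%, against 9.29% and 9.86% of all genes), of which 1 and 3 repeated in the OE pair. The hexokinase gene HK2 was lower and stood at 3.33 and 6.35 FPKM in HCT116 WT and OE, against 27.8 and 14.8 FPKM in RKO WT and OE, and HK1, under 2-fold apart, stood at 20.95 and 24.7 FPKM in HCT116, against 37.1 and 37.6 FPKM in RKO. Of the glucose transporter genes, SLC2A3 was lower with 0.546 and 0.436 FPKM in HCT116, against 4.51 and 3.49 FPKM in RKO and SLC2A1, which shares exons with another gene, was under 2-fold apart with 12.1 and 14.97 FPKM in HCT116, against 8.57 and 7.26 FPKM in RKO. BNIP3, a mitophagy receptor, was higher in HCT116 (5.395 and 6.62 FPKM in HCT116, against 0.0227 and 0.0441 FPKM in RKO). GAPDH stood at 2501 and 2389.5 FPKM in HCT116, against 2347 and 3127 FPKM in RKO.

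Cholesterol genes were higher for 5 of 25 and lower for 1 in the WT pair (20% and 4%, against 9.29% and 9.86% of all genes). Of these calls 2 higher ones repeated in the OE pair, among them that of SCD, the stearoyl-CoA desaturase gene (151 and 162 FPKM in HCT116, against 66.5 and 77.01 FPKM in RKO). ATF4 targets were higher for 7 of 22 and lower for 1 (31.8% and 4.55%, against 9.29% and 9.86% of all genes). In the OE pair 3 of the 7 but not the lower one repeated. SLC7A5, an amino acid transporter gene, stood at 131 and 141 FPKM in HCT116 WT and OE, against 32.97 and 117 FPKM in RKO WT and OE, so that the WT difference was not repeated in the OE pair.

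Of 57 cytosolic ribosomal protein genes, 1 was at least 2-fold lower in HCT116 (1.75%, against 9.86% of all genes). It was RPL7A, which shares exons with another gene. The median log2 difference of the list was -0.24, between -0.29 and -0.11 over the other settings. Of 45 nuclear genes of oxidative phosphorylation, 2 were higher (4.44%, against 9.29% of all genes), neither of them in the OE pair. Among 13 mRNAs encoded by mitochondrial DNA, 4 were higher and 1 lower (30.8% and 7.69%, against 9.29% and 9.86% of all genes). Their median log2 difference was 0.62. MT-ND6 stood at 4056 and 3843 FPKM in HCT116 WT and OE, against 1156 and 1173 FPKM in RKO WT and OE. MT-ATP6, which overlaps MT-ATP8 on the same transcript, was the lower one, with 7305 and 7717 FPKM in HCT116 WT and OE, against 20777 and 16360.4 FPKM in RKO WT and OE. Fragments of such overlapping genes cannot be assigned with certainty.

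By chromosome arm, most medians lay close to the median of all genes. Among 41 arms with at least 20 measured genes, 17q had the highest median log2 difference, 0.33 in the WT pair and 0.31 in the OE pair over 468 genes, of which 83 were higher and 24 lower in HCT116 WT. The lowest was that of 9q, at -0.71 and -0.62 over 324 genes, of which 22 were higher and 99 lower. Over all arms together, 944 of 10162 genes were higher (9.29%) and 1002 lower (9.86%). On 9q, 20.1% of the genes lay above the median of all genes, against 74.6% on 17q. The arms 8q (-0.51 and -0.19), 12p (-0.33 and -0.41), 7q (-0.41 and -0.27), 20p (-0.38 and -0.23) and 20q (-0.36 and -0.24) were low in both pairs. By contrast 10p had -0.50 in the WT pair and 0.01 in the OE pair, and 19p had 0.21 and 0.03, so these arms did not stand apart in both pairs. DNA copy number was not measured in these files.

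**Figure D5:**
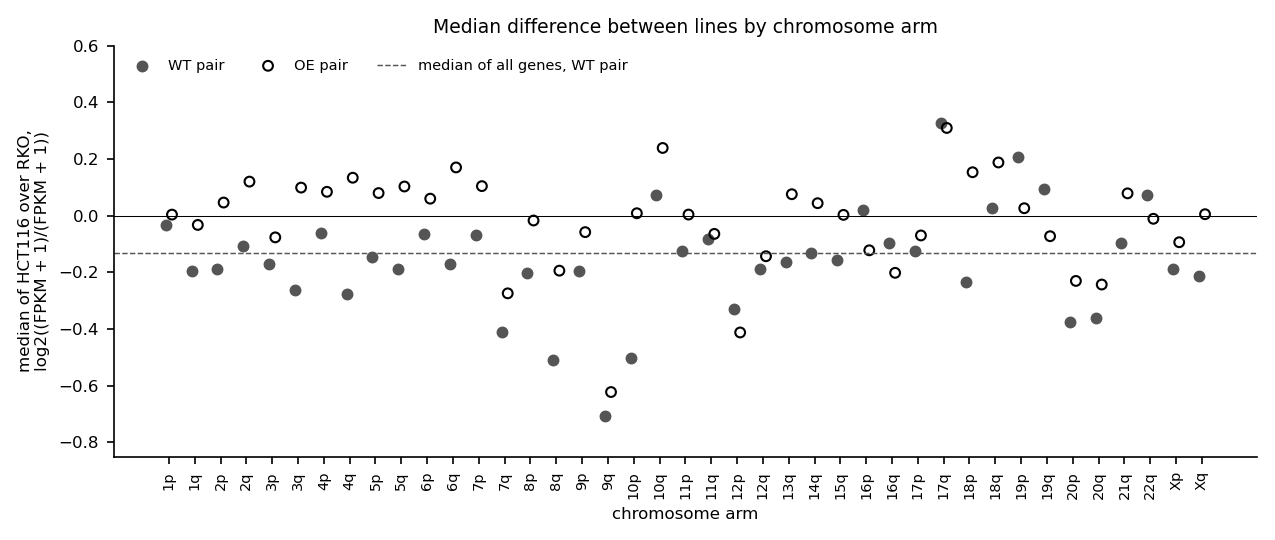
Median log2 difference between HCT116 and RKO for each of 41 chromosome arms with at least 20 measured genes, in the WT pair (filled circles) and the OE pair (open circles); the dashed line is the median of all genes in the WT pair (-0.13). The arm 17q lies highest and 9q lowest in both pairs, while 10p is low in the WT pair alone.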

How the data were processed

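Poly(A) RNA of 4 libraries, 1 per group, was sequenced in paired-end mode, as the labels' protocols state. The authors deposited FPKM values per gene in 2 tables, 1 for each line, with 0.0001 FPKM for genes without signal. Per the submitters' processing notes, the tools were Bowtie (0.12.2), HISAT2 (2.0) and StringTie (1.3.0); those notes give a mouse build, although the identifiers are human. Strand use and the handling of overlapping genes are not given in the sources used here. Tables were joined on gene identifier, and levels set across the 2 tables are described, not tested. The labels do not state separate cultures.

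Gene positions, lengths and GC content were taken from GENCODE 29 (58394 identifiers found). Depth was estimated from the steps of low values in single-exon genes of at least 400 bases, where 48.2% to 50.1% of values per library lay within 2% of a whole or midpoint step, so the step is an estimate. Intervals are 95% exact conditional intervals on estimated fragments and cover counting error only. Calls used a pseudocount of 1 FPKM and a 2-fold difference, with pandas 2.3.3 and scipy 1.17.1, checked on simulated data.

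The members, the 38 gene lists, the motif and the rule for named genes were chosen with earlier results of these data known. The rule takes the 12 highest and 12 lowest genes averaging 5 FPKM or more, without shared exons, whose call repeats in the OE pair, up to 8 genes per list, a set of known colorectal genes, and list genes at the floor in both libraries of a line. Further list members were named after their values were seen. Some genes and 1 list are not reported here.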

Additional observations from a re-analysis of the deposited data

Results flagged for a closer look

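There were 6 genes that share no exon with another gene and were called in opposite directions in the WT pair and in the OE pair, which flags the difference between lines as depending on the library. The change between pairs was not tested, since each group has 1 library. SLC9A3R1, a scaffold protein gene of the apical membrane, had log2 differences of 1.75 in the WT pair and -1.02 in the OE pair, from 42.6 and 22.5 FPKM in HCT116 WT and OE, against 11.97 and 46.5 FPKM in RKO WT and OE. SUOX, which encodes sulfite oxidase, had -2.05 and 1.37, from 1.24 and 5.88 FPKM in HCT116 WT and OE, against 8.26 and 1.67 FPKM in RKO WT and OE. SZRD1 had 1.20 and -1.09, from 38.8 and 22.2 FPKM in HCT116 WT and OE, against 16.4 and 48.3 FPKM in RKO WT and OE. In these 3 genes the WT and OE libraries of each line lay apart, so the lines overlapped. DCP2, an mRNA decapping enzyme gene, had -1.19 and 1.11, POMK had 1.26 and -1.30, and TTPAL had -1.23 and 1.70, all from values under 7 FPKM. Another 8 genes with opposite calls share exons with a neighbour.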

How the results depend on the processing

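When the filter on the mean was raised to 5 FPKM, 5598 genes were compared, and 952 were called, 405 higher and 547 lower in HCT116, of which 292 and 346 repeated in the OE pair. The cause of the smaller counts was not tested, and fewer genes were compared. The other 6 settings kept each of these counts within 1.5 times that reported: a pseudocount of 0.1 gave 2614 calls, no filter on the mean 2216, scaling to the sum outside the mitochondrial genome 1880, centring on the median 1866, removing the trend on GC content and length 1863, and leaving out genes that share exons 1664. Of 300 named genes past the filter, 202 were called, none reversed under any of the 7 settings, and 16 lost the call in at least 1, among them CLDN12, MGMT, LAMB1, RPL7A, FOXA1 and PFKL, each within a narrow margin of 2-fold. Medians of 27 of 38 lists kept their sign, and 11 turned, whose reported medians lay between -0.26 and 0.64. At a mean of 5 FPKM those for matrix genes, HOX genes, mesenchymal genes and markers of other cells came to -0.11, 0.42, -0.62 and -6.21, the last from CD68. The methylator panel and HLA class II lists had no member at a mean of 5 FPKM and so gave no value there. No paired analysis was possible because the labels give no replicate numbers, and leaving out a library would empty a group.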
